A study of Mus musculus with 6 samples.

Results

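The small leucine-rich proteoglycans are matrix proteins that cardiac fibroblasts secrete, and 7 of their genes were followed here in the hearts of mice with a cardiotonic steroid (CTS)-resistant or CTS-sensitive Na/K-ATPase α1. The genes were Dcn (decorin), Lum (lumican), Bgn (biglycan), Fmod (fibromodulin), Ogn (osteoglycin, also called mimecan), Prelp and Aspn (asporin). They were taken by name from the 54532 genes listed, and all 7 passed the filter on low counts that left 14866 genes for testing. RNA came from whole hearts of 3-month-old mice on a C57BL/6 background, with 3 hearts of genotype α1r/rα2s/s (resistant) and 3 of genotype α1s/sα2s/s (sensitive). Both genotypes carry the CTS-sensitive α2, and per the study's methods the mice were male, with α1 made sensitive by substitutions introduced into the mouse gene itself and so not restricted to one cell type. The labels name no treatment. Counts per gene do not show these substitutions, so the genotype of each heart is that of its label.

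Small leucine-rich proteoglycans have a short protein core made of leucine-rich repeats, which in most members carries glycosaminoglycan chains. In tissue they sit on collagen fibrils, set fibril diameter and spacing, and bind growth factors such as TGF-β. Fibroblasts are their main source in the heart, and decorin, biglycan and lumican are well known for their roles in the scar and in the interstitial matrix. By sequence, decorin, biglycan and asporin form class I of the family, lumican, fibromodulin and Prelp class II, and osteoglycin belongs to class III.

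The total count was between 19309312 and 20470065 reads per heart, and the 7 genes together had between 18753 and 23048 reads. Mitochondrially encoded genes took 23.4% to 24.4% of reads in resistant hearts and 25.0% to 26.0% in sensitive hearts, with no overlap, and leaving out globin and mitochondrial genes together changed no call among the 7 genes. Globin genes took between 0.0370% and 0.305% of reads and overlapped between the genotypes. Tested with the quasi-likelihood method of edgeR and adjusted after Benjamini and Hochberg, 214 genes differed at an adjusted p below 0.05 (1.44% of those tested), 98 of them lower (0.659%) and 116 higher (0.78%) in sensitive hearts.

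Of the 7 genes, 6 lie in 3 clusters of this family on GRCm38. Dcn (chromosome 10, 97479609 to 97518143) is followed on the same strand by Lum (97565128 to 97572703) after a gap of 47.0 kb. Aspn (chromosome 13, 49544443 to 49567565) and Ogn (49608046 to 49624501) flank the family member Omd. Prelp (chromosome 1, 133910304 to 133921414, minus strand) and Fmod (134037254 to 134048277, plus strand) are 116 kb apart. Bgn stands alone on chromosome X (73483602 to 73495933). Aspn and Ogn both lie within the span of Cenpp, a gene on the opposite strand with 29 to 59 counts per heart, and Prelp overlaps the antisense gene Gm15851, which had 0 counts in all 6 hearts. The sources used here do not say whether the counting used strand, and none of the other 4 genes overlaps another annotated gene.

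Promoter sequences from RefSeq (GRCm38.p6) were available for 5 of the 7 genes, Prelp, Fmod, Aspn, Ogn and Bgn. The 250 bases before the start site are shown for Prelp, the gene of the family with the smallest p between genotypes, and for Aspn, the one with the largest p. Capitals mark, on either strand, the TATA box letters TATAAA, the GC box letters GGGCGG and the letters CCAAT. The last 13 bases of the Prelp window lie inside the first exon as GENCODE M21 draws it.
Prelp, chr1:133921402-133921651, minus strand: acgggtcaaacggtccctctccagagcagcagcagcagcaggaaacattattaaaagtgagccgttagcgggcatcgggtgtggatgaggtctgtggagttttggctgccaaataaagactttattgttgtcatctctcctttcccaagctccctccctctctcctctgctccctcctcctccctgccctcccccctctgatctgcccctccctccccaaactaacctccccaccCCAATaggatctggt
Aspn, chr13:49544193-49544442, plus strand: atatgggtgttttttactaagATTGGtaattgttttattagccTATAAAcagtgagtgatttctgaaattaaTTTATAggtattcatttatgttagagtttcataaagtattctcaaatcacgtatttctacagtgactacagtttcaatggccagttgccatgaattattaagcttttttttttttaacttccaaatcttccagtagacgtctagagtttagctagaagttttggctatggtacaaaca
The Prelp window held 1 match, to CCAAT, which starts 15 bases before the start site, and its GC content was 55.6%. The Aspn window held 1 CCAAT match and 2 TATAAA matches, with the nearest 178 bases before the start site, and its GC content was 30.0%. Of the other windows, that of Bgn held 3 GGGCGG matches (2 of them overlapping), that of Ogn 2 overlapping TATAAA matches and that of Fmod none of the 3. Among all 32851 windows of this length, 12.4% held TATAAA, 32.7% GGGCGG and 33.8% CCAAT. No letters were common to all 5 windows among those searched, which also included CANNTG (4 of 5 windows, against 66.2% of all), GGAATG (1 of 5, against 12.6%) and TGANTCA (0 of 5, against 6.75%).

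Levels were compared between genes per length, as RPKM, the CPM (counts scaled to the TMM-normalised library size) divided by the gene model's length in kilobases. Decorin mRNA was the most abundant, with 93.1 ± 3.71 RPKM over all hearts (SD, n = 6). Osteoglycin followed with 54.4 ± 3.32 RPKM, biglycan with 31.4 ± 3.22 and lumican with 26.9 ± 3.39 (SD, n = 6). Asporin and Prelp had 14.6 ± 1.60 and 14.5 ± 2.04 RPKM, and fibromodulin was the least abundant with 2.42 ± 0.702 (SD, n = 6). The ranges over the 6 hearts of Bgn and Lum overlapped, as did those of Aspn and Prelp, while Dcn, Ogn and Fmod overlapped no other gene of the 7. Within a heart, Bgn exceeded Lum in all 6 hearts, and Lum exceeded Prelp in all 6.

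None of the 7 genes differed between the genotypes past the threshold in edgeR, nor in DESeq2, which called 3.56% of the genes it adjusted. Lum and Prelp were the nearest, both lower in every sensitive heart than in any resistant heart, with unadjusted p under 0.05 for these 2 of the 7 genes (7.27% of all tested genes were lower at that p). Dcn, the most abundant, and Aspn had estimates above 0. Of the 7 log2 fold changes of sensitive over resistant hearts (log2FC), 5 were below 0, against 51.6% of all tested genes, and their median was -0.15 against -0.01 over all tested genes. In whole-heart RNA, fewer fibroblasts and less RNA per fibroblast cannot be told apart.

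Decorin, which carries a chondroitin or dermatan sulfate chain and binds collagen type I and TGF-β, had 553, 535 and 511 CPM in resistant hearts. The sensitive hearts had 576, 551 and 537 CPM, within or slightly above that range. The log2FC of Dcn was 0.06 (standard error, SE, 0.07, adjusted p = 0.757, edgeR), with a 95% interval from -0.09 to 0.20. In percent, that interval runs from -6.01% to 15.1%, so a fall in decorin mRNA larger than its lower end lies outside it.

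Biglycan, the closest relative of decorin and a ligand of Toll-like receptors when released from the matrix, had 194, 223 and 186 CPM in resistant hearts. It had 193, 190 and 162 CPM in sensitive hearts, where the third heart was the lowest of the 6 and the others lay inside the resistant range. The log2FC of Bgn was -0.15 (SE 0.09, adjusted p = 0.467, edgeR), and its interval from -0.33 to 0.04 included 0. The estimate for Bgn was -0.061 without resistant heart 2 and -0.068 without sensitive heart 3. Asporin, which lacks the usual glycosaminoglycan attachment and carries a stretch of aspartates, had 34.5, 38.9 and 28.5 CPM in resistant hearts and 32.0, 37.5 and 35.2 CPM in sensitive hearts. The resistant hearts alone spanned all of the sensitive values of Aspn. Its log2FC was 0.04 (SE 0.11, adjusted p = 0.909, edgeR), and it fell below 0 when resistant heart 3 or sensitive heart 2 was left out (-0.07 and -0.01).

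Lumican, a keratan sulfate proteoglycan that limits the lateral growth of fibrils, had 68.4, 81.0 and 66.0 CPM in resistant hearts. It had 59.0, 61.6 and 59.3 CPM in sensitive hearts, all below the lowest resistant heart. The log2FC of Lum was -0.26 (SE 0.08, unadjusted p = 0.00748, adjusted p = 0.155, edgeR), with an interval from -0.44 to -0.08. Without resistant heart 2, the highest of the 6, the estimate for Lum was -0.16 and its unadjusted p 0.0666 in edgeR. Prelp, which lacks glycosaminoglycan chains and links collagen to heparan sulfate of basement membranes, had 61.3, 61.3 and 50.6 CPM in resistant hearts and 50.1, 46.5 and 44.0 CPM in sensitive hearts. The groups did not overlap, although resistant heart 3 and sensitive heart 1 were nearly equal. The log2FC of Prelp was -0.30 (SE 0.09, unadjusted p = 0.0046, adjusted p = 0.129, edgeR), with an interval from -0.49 to -0.11. Without a filter on low counts its adjusted p was 0.0487. Both genes belong to the 9.98% of tested genes that were lower in sensitive hearts without overlap.

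Fibromodulin, a keratan sulfate proteoglycan of tendon and valves that guides collagen cross-linking, had 10.7, 10.8 and 5.38 CPM in resistant hearts. Sensitive hearts had 7.65, 6.00 and 7.47 CPM, between resistant heart 3 and the other resistant hearts. The log2FC of Fmod was -0.35 (SE 0.23, adjusted p = 0.506, edgeR), the lowest estimate of the 7 and the one with the widest interval, from -0.84 to 0.13. It rested on 107 to 227 counts per heart. Without resistant heart 3 the estimate was -0.61 with an adjusted p of 0.0988 in edgeR, and without resistant heart 1 or 2 it was -0.20 or -0.19. Osteoglycin, a small member of the family found around vessels and in the interstitium, had 149, 150 and 135 CPM in resistant hearts and 138, 138 and 128 CPM in sensitive hearts. Its log2FC was -0.11 (SE 0.07, adjusted p = 0.515, edgeR), with an interval from -0.26 to 0.04.

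**Figure D1:**
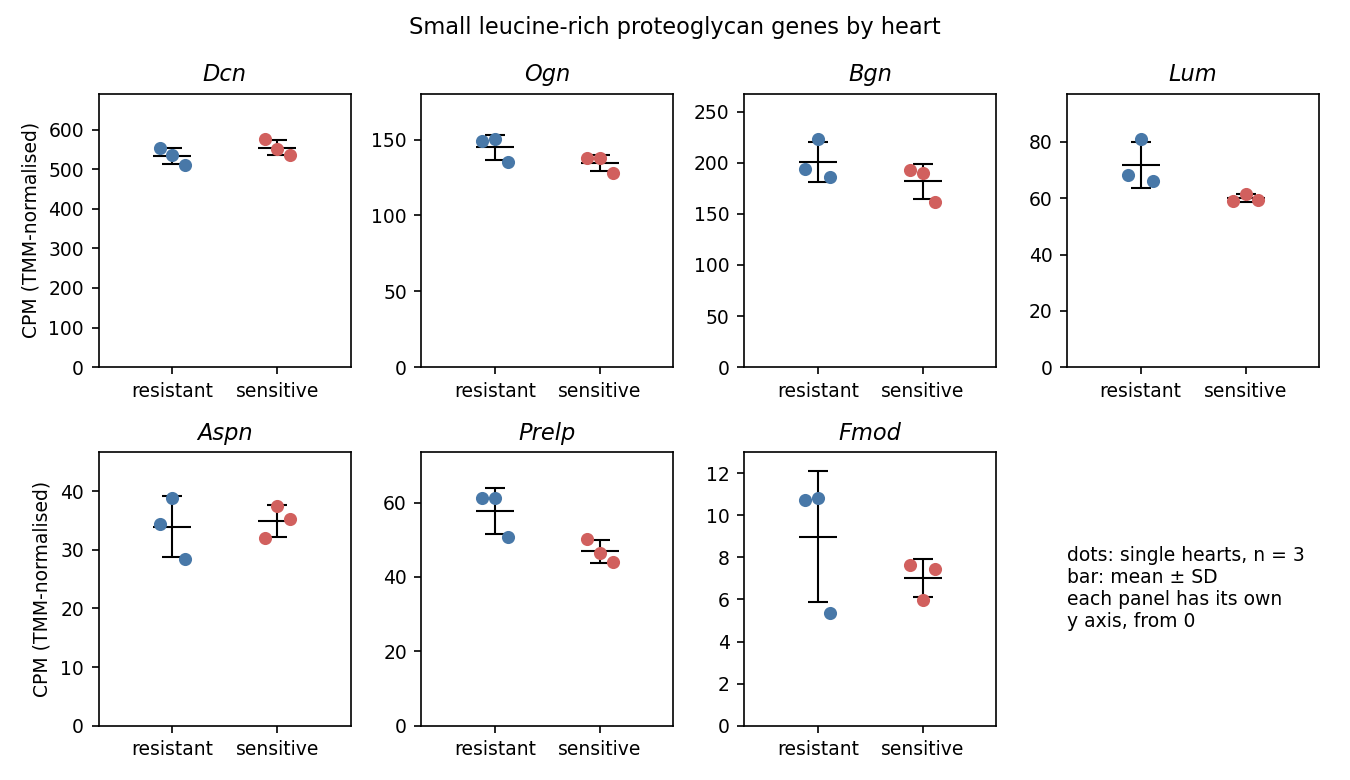
Level of each gene in every heart, in TMM-normalised CPM (y axis, from 0, own scale per panel) for resistant (blue) and sensitive (red) hearts, with the mean and SD of 3 hearts. Lum and Prelp are the panels without overlap between the genotypes, and resistant heart 3 is the lowest resistant heart in each panel.

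Resistant heart 3 had the lowest value of its genotype for each of the 7 genes, and sensitive heart 3 had the lowest of its genotype for Dcn, Bgn, Ogn and Prelp. In exact permutation tests (two-sided), the smallest possible p is 0.1 with 3 hearts against 3, which any gene without overlap reaches. Lum and Prelp reached that value. The exact p of the other genes was between 0.3 and 0.9. Across the 6 hearts, Ogn and Prelp varied most alike, with a Pearson r of 0.95 of their log2 CPM, followed by Bgn and Ogn at 0.87 and Lum and Prelp at 0.83. Dcn had an r between -0.36 and 0.33 with the other 6 genes, although it shares a cluster with Lum. These are descriptions over the same 6 libraries, which share their normalization. The spread between hearts of one genotype (SD) was 2.36% to 15.4% of the mean for all but Fmod, in which it was 34.8% in resistant and 12.9% in sensitive hearts.

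The sum over the 7 genes overlapped between the genotypes, while the proportions of Dcn, Lum and Prelp in it did not. Summed levels were 1071, 1101 and 983 CPM in resistant hearts and 1056, 1030 and 973 CPM in sensitive hearts, a difference of the means of -3.04%. Without Dcn the sums were 518, 566 and 472 CPM against 480, 479 and 436 CPM, which also overlapped, with a difference of -10.3%. By length, Dcn made up 38.3%, 35.7% and 38.8% of the summed RPKM in resistant hearts and 41.5%, 40.2% and 41.4% in sensitive hearts. Its share was thus above every resistant heart in each sensitive heart. The share of Prelp was 6.85%, 6.61% and 6.21% in resistant and 5.83%, 5.48% and 5.49% in sensitive hearts, and that of Lum was 11.3% to 12.9% against 10.1% to 10.9%. Neither gene overlapped between genotypes in its share. The shares of the 7 genes in a heart have a fixed total, so they are not independent of each other. In CPM, Dcn itself overlapped between the genotypes. No count of such shares over all genes was made.

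A ratio within a heart does not depend on how libraries are scaled. Per 100 reads of Dcn there were 27.0, 28.1 and 26.5 reads of Ogn in resistant hearts and 23.9, 25.0 and 23.9 in sensitive hearts. For Prelp the ratio was 11.1, 11.5 and 9.91 reads against 8.71, 8.44 and 8.21, a log2 difference of -0.35. Lum and Bgn were also lower against Dcn without overlap, by -0.31 and -0.20 on the log2 scale, while Fmod and Aspn overlapped. In exact two-sided permutation tests of the log2 ratio, the p of the 4 genes that did not overlap was 0.1, the smallest possible. That value follows from the lack of overlap and adds nothing to it. Of all tested genes, 14.5% had a ratio to Dcn that was lower in every sensitive heart, and 4.3% one that was higher, so that low ratios to Dcn were frequent throughout the table.

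**Figure D2:**
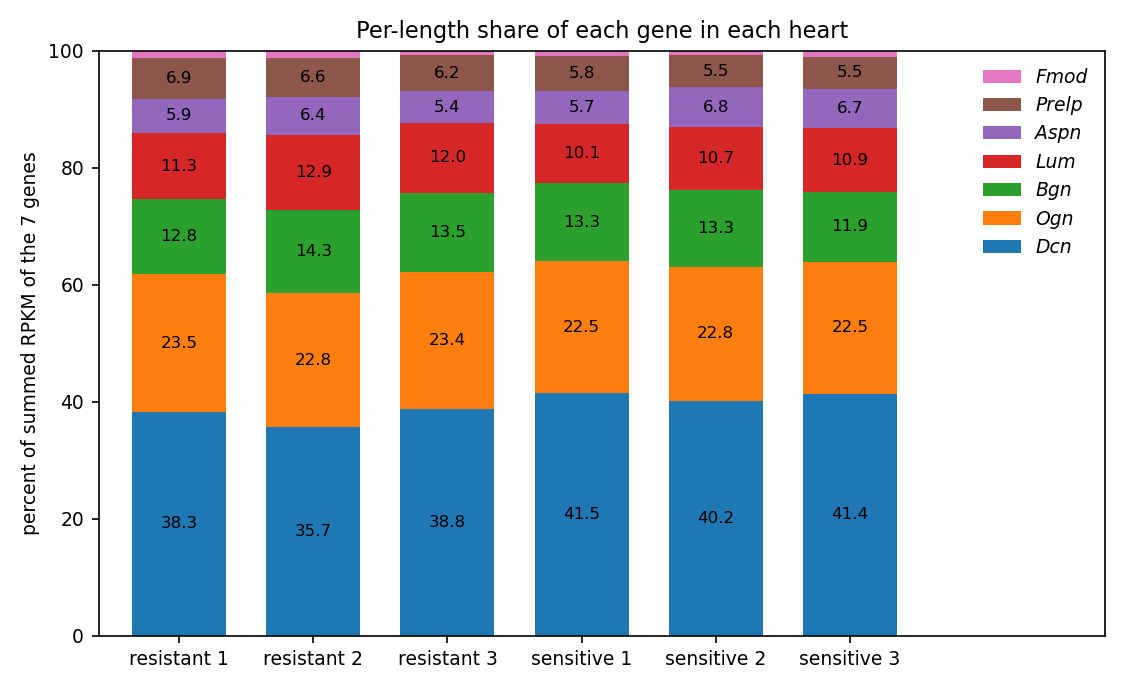
Share of each gene in the summed RPKM of the 7 genes (y axis, percent) for each heart (x axis). The Dcn share lies between 35.7% and 38.8% in resistant hearts and between 40.2% and 41.5% in sensitive hearts, while those of Lum and Prelp are smaller in each sensitive heart.

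Fibroblasts were described with 20 markers, and all 20 were detected and tested. Their detection in whole-heart RNA does not show which cells made the reads of the 7 genes. Pdgfra, the receptor that marks cardiac fibroblasts, had 42.9 to 64.7 CPM over all hearts and overlapped between the genotypes, and Tcf21, a transcription factor of the lineage, had 5.08 to 9.36 CPM over all hearts. None of the 20 markers passed the threshold in edgeR, and 4 were lower at an unadjusted p under 0.05 (7.27% of all tested genes). These were Col1a1, Col1a2, Col3a1 and, as the 1 gene among the 17 markers other than collagens, Thy1. Of the 20 markers, 15 had log2FC below 0 (median -0.16), against 51.6% of all tested genes. Of the 17 other than collagens, 12 were below 0 (median -0.11). Under alternative fits, Col1a1 passed in DESeq2 and without a filter on low counts, and Col3a1 under 6 of 13. The markers summed to 1952 to 2339 CPM in resistant and 1944 to 2296 CPM in sensitive hearts. Without the 3 collagens among them, the other 17 summed to 1465 to 1718 CPM in resistant and 1607 to 1859 CPM in sensitive hearts. Set against this sum, the 7 proteoglycan genes were lower in every sensitive heart, with ratios of 0.568 to 0.605 against 0.641 to 0.671. That separation was lost without Gsn (gelsolin, an actin-severing protein), which had 990 to 1131 CPM in resistant and 1117 to 1313 CPM in sensitive hearts and outweighed the other 16 markers. Without Gsn the other 16 summed to 475 to 611 CPM in resistant and 490 to 546 CPM in sensitive hearts. The ratio was then 1.93 to 1.99 in sensitive hearts, inside the range of 1.80 to 2.07 in resistant hearts.

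The 7 proteoglycan genes were also set against collagen mRNA. Col1a1, Col1a2 and Col3a1, the genes of the main fibrillar collagens of the heart, summed to 529, 621 and 487 CPM in resistant hearts and to 437, 456 and 337 CPM in sensitive hearts, without overlap. The 7 genes had 2.03, 1.77 and 2.02 reads per read of these collagens in resistant hearts and 2.42, 2.26 and 2.88 in sensitive hearts, again without overlap. The sum of the 7 genes itself overlapped, and 43.3% of all tested genes had a ratio to these collagens that was higher in every sensitive heart and 0.693% one that was lower, so that a higher ratio was frequent throughout the table.

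**Figure D3:**
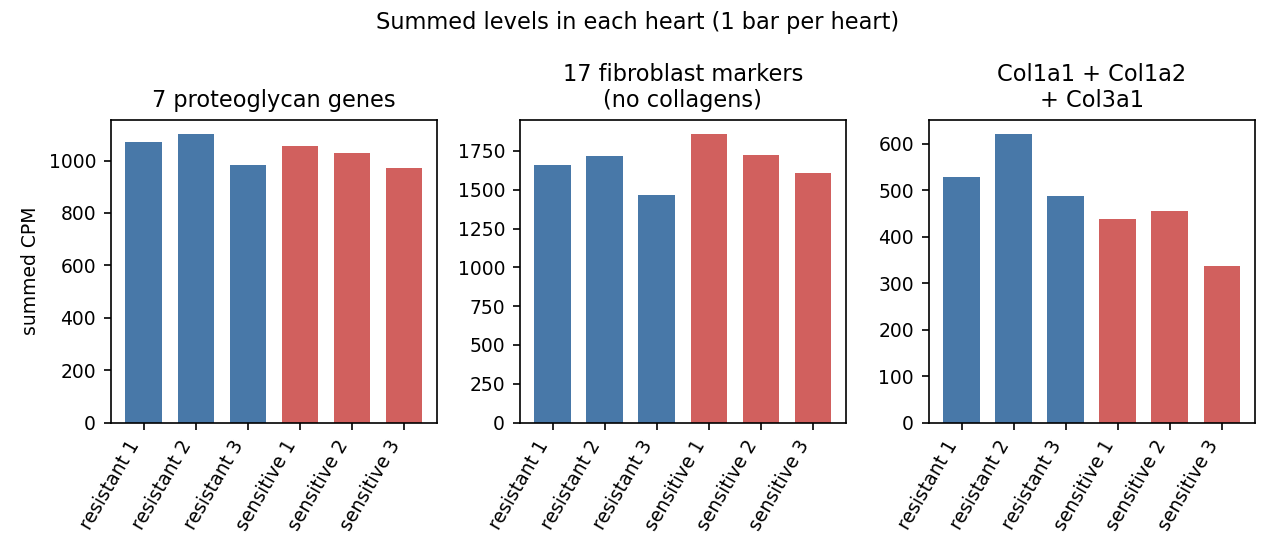
Summed TMM-normalised CPM in each heart (y axes from 0) of the 7 proteoglycan genes, of 17 fibroblast markers other than collagens and of the 3 collagen genes. The first and second panels overlap between genotypes, while in the third each sensitive heart (337 to 456 CPM) lies below each resistant heart (487 to 621 CPM).

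Among 11 further genes of the family, 8 were tested, and all 8 had log2FC below 0 (median -0.20), against 51.6% of all tested genes. None passed the threshold in edgeR or had an unadjusted p under 0.05. Their summed level was 65.8 to 74.9 CPM in resistant and 54.0 to 64.5 CPM in sensitive hearts, without overlap. On its own, 1 gene of the 8, Nyx (nyctalopin), did not overlap, while 9.98% of all tested genes were lower without overlap. Ecm2, next to Aspn in the chromosome 13 cluster, was the most abundant of them per length, at 5.97 to 8.77 RPKM. Ecm2 made up most of the summed level, with 49.8, 41.5 and 46.0 CPM in resistant and 42.6, 45.6 and 33.9 CPM in sensitive hearts, which overlapped. Omd (osteomodulin), between Aspn and Ogn, had only 0.486 to 0.922 RPKM in the 6 hearts, below both of its neighbours. In the chromosome 10 cluster, Kera (keratocan, of the cornea) had at most 0.301 CPM, and Epyc (epiphycan, of cartilage) had 0.105 to 0.955 CPM with a log2FC of -1.08 (SE 0.59, adjusted p = 0.422, edgeR). Optc, 2.30 kb from Prelp, had at most 0.402 CPM in resistant hearts and 0 counts in sensitive hearts. Chad (chondroadherin), a collagen-binding protein of cartilage and tendon, had a log2FC of -0.48 (SE 0.29, adjusted p = 0.478, edgeR). Podn had 9.28 to 13.3 CPM and overlapped between the genotypes.

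The 12 markers of valve and tendon cells, in which fibromodulin is abundant, summed to 43.9 to 51.0 CPM in resistant and 40.6 to 46.8 CPM in sensitive hearts. Of these, 10 were tested and none passed, with 7 below 0 (median -0.17), against 51.6% of all tested genes. Scx was highest in resistant heart 3 (7.39 CPM). Cilp2 had 3.25, 3.11 and 1.61 CPM in resistant hearts, where resistant heart 3 was lowest as it was for Fmod. Scx and Cilp2 were named after their values were seen and do not stand for the list. The part of these cells in the Fmod values was not tested.

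**Figure D4:**
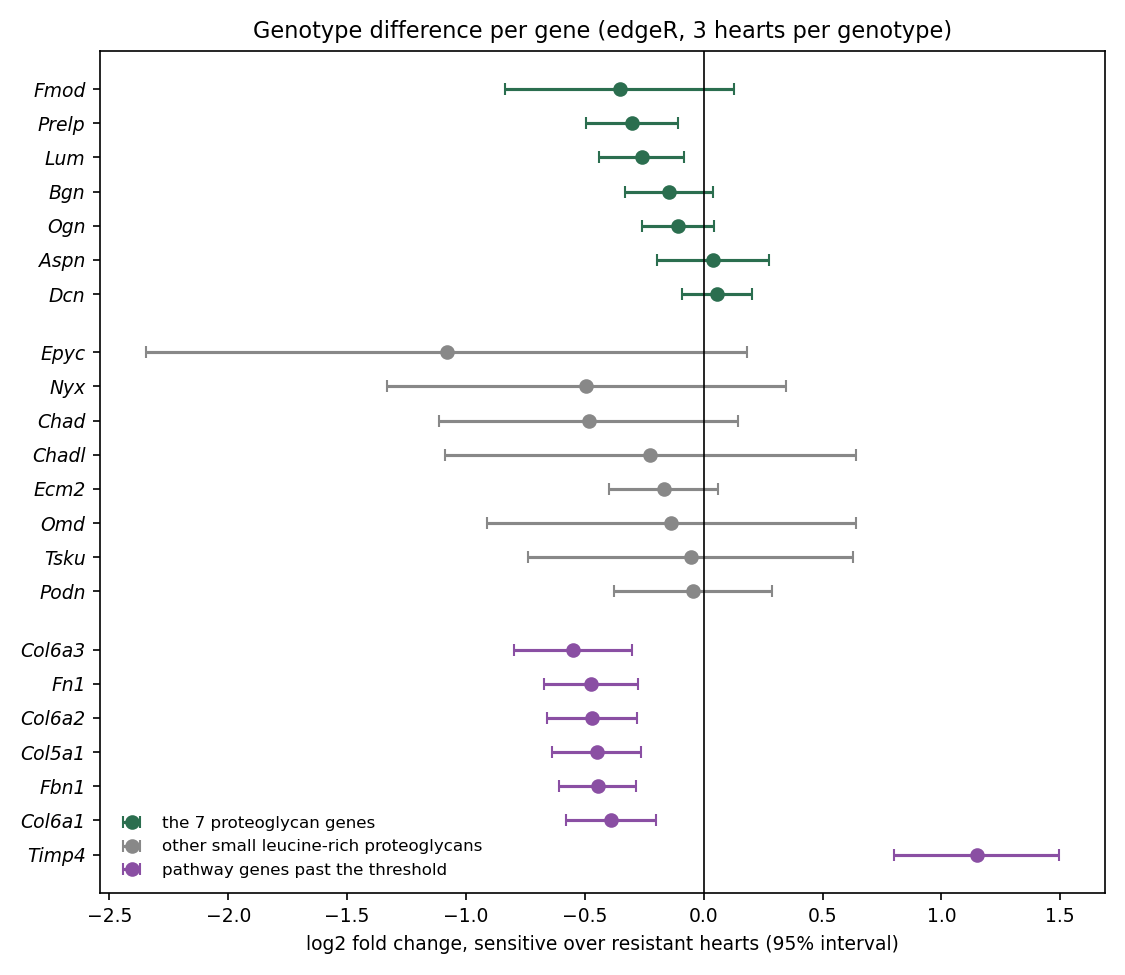
Log2FC of sensitive over resistant hearts (x axis, points) with 95% intervals (bars) for the 7 genes (green), the other tested family members (grey) and the pathway genes past the threshold (purple). The intervals of Lum and Prelp do not reach 0, all 8 grey points lie below 0, and the interval of Dcn (-0.09 to 0.20) lies above the points of the 6 matrix genes that fell.

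Further lists covered the fibril to which these proteins bind, other family members, collagen-processing and chain-building enzymes, proteases and their inhibitors, and growth factors, receptors and signalling genes. Together they held 146 genes other than the 7, of which 132 were tested. Of these, 6 fell and 1 rose past the threshold in edgeR (1.44% of all tested genes). Over all these lists, 92 had log2FC below 0 (51.6% of all tested genes). The genes that fell were Col5a1, Col6a1, Col6a2, Col6a3, Fn1 and Fbn1, all of the fibril or its surface. Leaving out resistant heart 1, resistant heart 2 or sensitive heart 3 left 2 calls, Fbn1 and Timp4.

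Of 11 fibrillar collagen genes, 8 were tested, 7 of these had values below 0 (median -0.33) and Col5a1 passed. At an unadjusted p under 0.05, 5 of the 8 were lower, against 7.27% of all tested genes. Col5a1 encodes a chain of collagen V, which nucleates fibrils, and fell from 62.9 ± 5.33 CPM to 46.1 ± 3.74 CPM (SD, n = 3). Its log2FC was -0.45 (SE 0.09, adjusted p = 0.0218, edgeR). Col3a1 had a log2FC of -0.49 with an adjusted p of 0.0542 in edgeR, and it passed under 6 of 13 alternative fits. Of the 20 genes of the fibril surface and its partners, all were tested and 5 fell past the threshold (0.659% of all tested genes). At an unadjusted p under 0.05, 7 of the 20 were lower and 1 was higher. Collagen VI, a beaded filament network that binds decorin and biglycan, is encoded by Col6a1, Col6a2 and Col6a3, which fell by 0.39, 0.47 and 0.55 on the log2 scale (adjusted p = 0.0398, 0.0198 and 0.0313, edgeR). Fn1 (fibronectin) fell by 0.47 (adjusted p = 0.0222, edgeR) and Fbn1 (fibrillin-1, of microfibrils) by 0.45 (adjusted p = 0.01, edgeR). Dpt (dermatopontin, a decorin-binding protein of the fibril) had a log2FC of -0.04 (adjusted p = 0.88, edgeR).

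The ratio of these genes to Dcn in each heart gave the difference between the fibril genes and decorin itself. Per 100 reads of Dcn there were 16.3, 18.6 and 15.5 reads of Col6a2 in resistant hearts and 11.7, 12.3 and 11.0 in sensitive hearts. For Fbn1 there were 24.3, 27.3 and 25.6 reads against 18.1, 19.2 and 17.2. All 6 genes that fell were lower relative to Dcn in each sensitive heart, by -0.45 to -0.63 on the log2 scale. Of all tested genes, 14.5% had such a lower ratio. The exact two-sided permutation p was 0.1 for each, the smallest possible, which follows from the lack of overlap. Since these 6 were taken for their fall in the same hearts, the count and the p are descriptions only.

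Enzymes that process and cross-link collagen showed no gene past the threshold in edgeR among 21 tested (2 at an unadjusted p under 0.05, 1 in each direction), with a median log2FC of -0.04. Plod1, a collagen lysyl hydroxylase, had a log2FC of -0.19 (adjusted p = 0.323, edgeR), and P3h4, a partner of collagen hydroxylases, one of 0.24 (adjusted p = 0.333, edgeR). The enzymes that build the glycosaminoglycan chains did not pass either. For the linker that joins a chain to the core protein, 7 genes were tested, of which 4 were below 0 and none had an unadjusted p under 0.05. Xylt1, a xylosyltransferase that starts the linker, had a log2FC of -0.27 (adjusted p = 0.723, edgeR), and Pxylp1, a phosphatase of its xylose, one of -0.21 (adjusted p = 0.666, edgeR). When a heart was left out, Xylt1 ranged from -0.57 to -0.025 (the latter without resistant heart 2) and Pxylp1 from -0.35 to -0.046 (the latter without resistant heart 3).

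For chondroitin and dermatan sulfate, the chains of decorin and biglycan, 14 genes were tested, 9 of them below 0 with a median of -0.14, and 2 had an unadjusted p under 0.05. These were Chst15, a sulfotransferase, with a log2FC of -0.38 (adjusted p = 0.299, edgeR), and Chsy1, a chondroitin synthase, with -0.30 (adjusted p = 0.3, edgeR). Without resistant heart 2 the value of Chst15 was -0.15. For keratan sulfate and sulfate supply, which serve lumican and fibromodulin, 9 genes were tested with a median of -0.06. The sulfate transporter Slc26a2 had a log2FC of -0.35 (adjusted p = 0.236, edgeR) and was the 1 gene with an unadjusted p under 0.05. B3gnt2, which extends such chains, had 0.68 (SE 0.37, adjusted p = 0.418, edgeR) at a mean of 1.16 and 1.87 CPM, and 0.35 without sensitive heart 3.

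Of the proteases that cleave these proteins and their inhibitors, 17 genes were tested. Of these, 13 were below 0 (51.6% of all tested genes) and 1 passed (1.44% of all). At an unadjusted p under 0.05, 5 were lower and 2 higher, against 7.27% and 7.19% of all tested genes. Timp4, an inhibitor of metalloproteinases, rose from 23.0 ± 2.48 CPM to 50.9 ± 14.6 CPM (SD, n = 3), with a log2FC of 1.15 (adjusted p = 0.00274, edgeR), and its adjusted p was 0.102 under the robust form of the prior. Its relative Timp3 had a log2FC of 0.20 (adjusted p = 0.184, edgeR). Bmp1, the protease that trims the propeptide of biglycan, had 37.6, 37.5 and 41.7 CPM in resistant and 33.9, 35.7 and 33.2 CPM in sensitive hearts, without overlap (adjusted p = 0.334, edgeR). A list of 28 genes held growth factors and receptors that these proteoglycans are known to bind or signal through, and signalling genes such as Smad2 and Smad3. All were tested, 14 were below 0 and 14 above, and none passed in edgeR. At an unadjusted p under 0.05, 4 were lower and 3 higher, against 7.27% and 7.19% of all tested genes. Kdr, the VEGF receptor to which decorin binds, had a log2FC of -0.50 (adjusted p = 0.0694, edgeR), and Tlr4, a receptor of free biglycan, one of 0.37 (adjusted p = 0.129, edgeR).

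Other cell types were described with the same fit. None of 10 cardiomyocyte markers passed (median log2FC 0.08), and they summed to 54903 to 66464 CPM in resistant and 60164 to 65747 CPM in sensitive hearts. All 10 mural cell markers were below 0 (median -0.33, none past the threshold, 6 at an unadjusted p under 0.05), and they summed to 1442 to 1507 CPM in resistant hearts and 1268 to 1433 CPM in sensitive hearts, without overlap. All 10 macrophage markers were also below 0 (median -0.37, none past the threshold, 4 at an unadjusted p under 0.05), with sums of 394 to 617 and 350 to 431 CPM that overlapped. Over all tested genes, 51.6% were below 0 and 7.27% were lower at an unadjusted p under 0.05. Of 10 endothelial markers, 6 were below 0 and 4 above (median -0.04), with 2 lower and 1 higher at an unadjusted p under 0.05. They summed to 1380 to 1633 CPM in resistant and 1391 to 1642 CPM in sensitive hearts, which overlapped. Kdr, with a log2FC of -0.50, is on this list too. The 1 marker past the threshold was Fabp4, a fatty acid binding protein of capillaries, with a log2FC of 0.39 (adjusted p = 0.0358, edgeR). That call was lost in 5 of the 6 fits that left out a heart (adjusted p from 0.0602 to 0.152) and held without resistant heart 2 (adjusted p = 0.00996, edgeR). The part of mural cells and macrophages in the values of Lum and Prelp was not tested.

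Across the 6 hearts, the 5 genes whose log2 CPM was most like the mean standardised profile of the 7 were Ccdc85b, Zfp738, Wasf2, Rtn4 and Smim15, with a Pearson r between 0.982 and 0.995. None of them passed the threshold between the genotypes (adjusted p from 0.433 to 0.844, edgeR). They were taken from 9080 genes whose mean log2 CPM reached 3, of which 123 had an r above 0.9, and with 6 points such values are a description only.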

How the data were processed

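RNA-seq was done on whole hearts of 3 resistant and 3 sensitive mice. A sequencing company did the mapping and counting, and the authors deposited raw counts per gene without normalization. The submitters' processing notes name fastp, STAR, featureCounts and mm10. Versions, annotation release and strand setting are not given in the sources used here. The table also gives a gene length per gene, used for RPKM. A second deposited table holds the authors' own DESeq2 comparison (mean, fold change, p-values) and was not used. Of the 54532 genes listed, 53499 have the coordinates of GENCODE M21 (GRCm38).

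The tests used R 4.3.3 and edgeR 4.0.16. Library sizes were scaled by TMM, low genes were removed by filterByExpr with a minimum count of 10 and a total of 15, and genes were tested with the quasi-likelihood test and Benjamini-Hochberg adjustment over all genes tested, at a threshold of 0.05. A standard error is the log2 fold change divided by the square root of F, and 95% intervals use the t distribution with the fit's degrees of freedom. Library totals were 19309312 to 20470065 counts, and for the least abundant genes counting error is large. Hearts of one genotype differed by more than counting error (chi-square per gene of 6.85 to 13.1, where counting error alone gives about 1). Per the study's text the hearts came from 3 mice of each genotype.

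Pathway genes named in the text are those with an adjusted p under 0.05 in each list and otherwise the tested genes with the smallest p, up to 2. Marker genes past the threshold are named, at most 2 per list. Dpt, Bmp1, Pdgfra, Tcf21, Gsn, Thy1, Scx, Cilp2, Ecm2, Omd, Kera, Optc, Podn, Nyx, Cenpp and Gm15851 were named after their values were seen or for their position. The 7 genes, the lists and the tests were chosen with earlier results of these data known. The alternatives were DESeq2 1.42.0, other scaling factors (RLE, upper quartile), testing all genes without a filter, a minimum of 10 counts per heart, a fit that drops globin and mitochondrial genes, the robust prior, and the removal of each heart in turn.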

Additional observations from a re-analysis of the deposited data

How the results depend on the processing

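The number of the 7 genes past the threshold was 0 under 12 of 13 alternatives and 1 (Prelp) without a filter on low counts. Across the alternatives the log2 fold change ranged from -0.38 to -0.25 for Prelp, from -0.31 to -0.16 for Lum and from 0.03 to 0.09 for Dcn, and from -0.067 to 0.15 for Aspn, which reversed without resistant heart 3 (-0.067) and without sensitive heart 2 (-0.01). The calls over all genes rose from 214 to 400 in DESeq2 and to 618 without a filter, and were 80 to 158 when a heart was left out. Those among the pathway genes went from 7 to 15 without a filter, and were 2 to 8 when a heart was left out. The fall of Fbn1 stayed past the threshold under all 13 alternatives, Col5a1 and Col6a2 under 10, Fn1 under 9, and Col6a1 and Col6a3 under 8. Timp4 passed under 12, and Col3a1 under 6. The summed level of the 7 genes differed by -0.04 on the log2 scale, and by -0.09 to -0.01 under the 9 alternatives for which it was computed. The cause of these shifts was not tested. DESeq2 gave no adjusted p for Epyc and B3gnt2. With 3 hearts per genotype, differences of the size seen in Fmod, at 5.38 to 10.8 CPM, lie within the spread between hearts. No paired analysis was possible because the labels give no replicate number that the genotypes share.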

Other observations

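Markers of further cell types were at low or variable levels. Of 10 mesothelial markers 3 were tested and none passed in edgeR (none at an unadjusted p under 0.05), and the list summed to 10.2 to 16.3 CPM in resistant and 10.4 to 15.5 CPM in sensitive hearts. Of 10 Schwann cell markers, 9 were tested, none passed or had an unadjusted p under 0.05, and the sums were 36.7 to 47.3 and 40.6 to 44.0 CPM. All 6 adipocyte markers tested were above 0 with a median log2 fold change of 0.66, none passed and 1 had an unadjusted p under 0.05, with sums of 6.58 to 11.3 and 6.84 to 23.4 CPM. The 6 blood markers, mostly globins, ranged from 537 to 1274 CPM in resistant and from 401 to 3190 CPM in sensitive hearts, and none passed or had an unadjusted p under 0.05.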
